A study of Mus musculus with 2 samples.

Results

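The genes described here are the 100 mouse cytochrome P450 genes, out of 20807 protein-coding genes on chromosomes 1 to 19, and the quantity described is the binding of CTCF around them. They were chosen by name from the GENCODE M21 annotation of mm10 (GRCm38), as every protein-coding gene whose symbol begins with Cyp followed by a digit. CTCF ChIP-seq was performed on intestines of newborn B6NCrl mice at postnatal day 0, as 1 group of 2 biological replicates with no other genotype, treatment or age. The intestines were pulverized and pooled over several dissections, and the sex was not collected. The labels give both replicates the same tissue sample and donor, so the spread between them may be technical. The tissue holds many cell types, and a peak list cannot say which of them carry a site, nor can it check the tissue by its marker genes.

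P450 enzymes are heme-containing monooxygenases of the endoplasmic reticulum and the mitochondrion, which take electrons from partner reductases and insert oxygen into drugs, fatty acids, steroids, bile acids, vitamin D and retinoids. Those that act on foreign compounds and fatty acids have multiplied in rodents into arrays of neighbouring copies, whereas those with a fixed place in hormone and lipid metabolism are mostly single genes. The zinc finger protein CTCF recognizes a directional DNA motif and, together with cohesin, marks the borders of chromatin loops.

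Peaks of the optimal list, a selection made with a filter on reproducibility, were used with their summits. A peak of this list need not have a matching peak in the list of each replicate. The authors' signal of a peak is an enrichment value with no stated normalization, so it served only to describe and rank peaks within 1 list. The lists give no read counts, and the depth behind a peak is unknown. The optimal list held 73465 peaks with a median signal of 76.0, and 71756 of them lay on chromosomes 1 to 19. Genes were sorted by position. A tandem cluster was a run of at least 3 genes of families 2, 3 and 4 with gaps of at most 200 kb, and 8 such clusters held 67 genes. Another 8 genes lay in pairs (Cyp1a1 and Cyp1a2, Cyp11b1 and Cyp11b2, Cyp26a1 and Cyp26c1, Cyp4f13 and Cyp4f14), and 25 genes stood alone.

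The DNA under several strong peaks is given first. The stretches below are the motif sites of 5 strong peaks near P450 genes that stand alone or in a pair, read from the mm10 sequence on the strand of the motif, 5′ to 3′, with the 19 bases of the CTCF motif in capitals.
Cyp2w1 (chr5:139355404-139355442, minus strand): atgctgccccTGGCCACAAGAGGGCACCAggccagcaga
Cyp46a1 (chr12:108333174-108333212, plus strand): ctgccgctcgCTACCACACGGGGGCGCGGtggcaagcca
Cyp17a1 (chr19:46670849-46670887, plus strand): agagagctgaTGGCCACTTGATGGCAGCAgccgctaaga
Cyp1b1 (chr17:79715721-79715759, minus strand): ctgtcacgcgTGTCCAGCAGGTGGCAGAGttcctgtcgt
Cyp26a1 (chr19:37704084-37704122, plus strand): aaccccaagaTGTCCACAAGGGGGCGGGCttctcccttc
The motif was called by its score with a matrix built from the peaks themselves, trained on even chromosomes and scored on odd ones and the other way round, on both strands, within 100 bases of the summit. Such a match is a description of the letters and not a measured contact.

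P450 genes had CTCF nearby less often than coding genes as a whole, and 53 of the 56 genes without it were tandem copies. A summit lay within 10 kb of an annotated transcription start site (TSS) in 44 of 100 P450 genes (44%), against 74.4% of coding genes. Distances run to the nearest annotated start site, which can be an alternative start inside the gene. Examples below are Cyp17a1, Cyp19a1, Cyp2ab1, Cyp2b19 and Cyp4f37. Of the tandem copies 14 of 67 had one (20.9%), of the paired genes 6 of 8 (75%), and of the single genes 24 of 25 (96%). Each replicate taken alone, cut to as many of its strongest peaks as the optimal list holds, also gave 44 P450 genes, with 15 tandem, 6 paired and 23 single genes. Within 1 kb the count was 25 genes, namely 5 tandem, 2 paired and 18 single genes, beside 46.7% of coding genes. The median distance to the closest summit was 14.6 kb for P450 genes, against 1.37 kb for coding genes. It was 33.3 kb for tandem copies, 5.30 kb for paired genes and 0.424 kb for single genes. The lead of the single genes over coding genes shrank when only peaks above the list's median signal were counted. Within 10 kb such peaks lay near 16.4% of tandem copies, 62.5% of paired and 64% of single genes, against 57.5% of coding genes. Genes of 1 cluster share peaks and are not independent, so these shares carry no test.

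**Figure D1:**
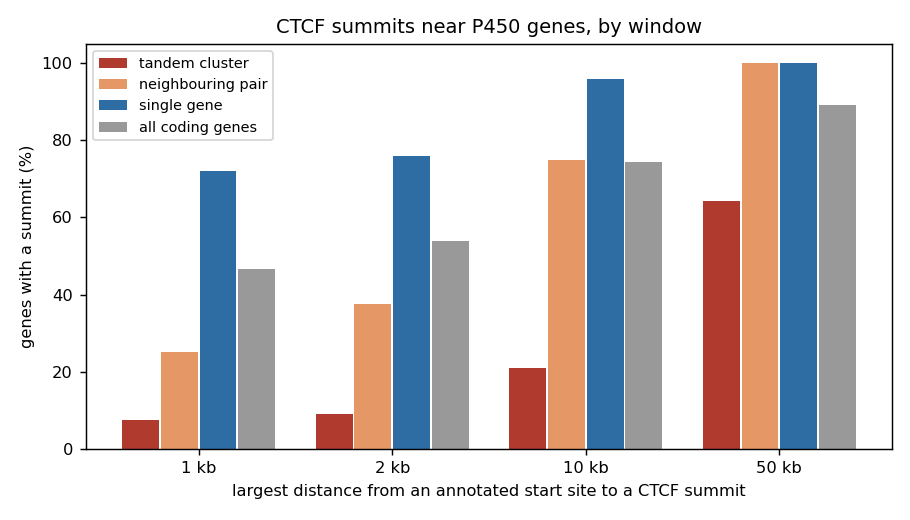
Share of genes (y axis, %) with an optimal CTCF summit within 1, 2, 10 or 50 kb of an annotated start site (x axis), for tandem clusters, neighbouring pairs, single P450 genes and all coding genes of chromosomes 1 to 19. Tandem copies stay below all coding genes at each distance, with 20.9% against 74.4% at 10 kb, and single genes stay above them.

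The 44 genes held 92 distinct summits, of which 6 were shared by neighbouring P450 genes. A P450 gene had the nearest coding TSS at 85 of the 92, and for the other 7 it was Prkag3, Pfdn4, Cox19, Egln2, Eef1akmt3, March9 or Slc25a27. By annotation 36 summits lay within 1 kb of some TSS, 34 in introns, 13 between genes, 5 in coding exons, 2 in untranslated exons and 2 in other exons. Their signals ran from 5.24 to 554 with a median of 114, above the 76.0 of the whole list. Taking the strongest summit of each gene, however, the median was 184 over the 44 P450 genes, against 240 over coding genes with a summit. By class it was 276 for tandem copies with a summit, 182 for paired and 159 for single genes. Of the 92 summits, 90 had a peak within 100 bases in the list of replicate 1 and 89 in that of replicate 2. Among as many of the strongest peaks as the optimal list holds, 79 were found in replicate 1 and 85 in replicate 2. Each replicate list holds 300000 peaks, and the optimal list was selected from the same data, so many matches follow from the selection. No such share over all optimal peaks is given.

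**Figure D2:**
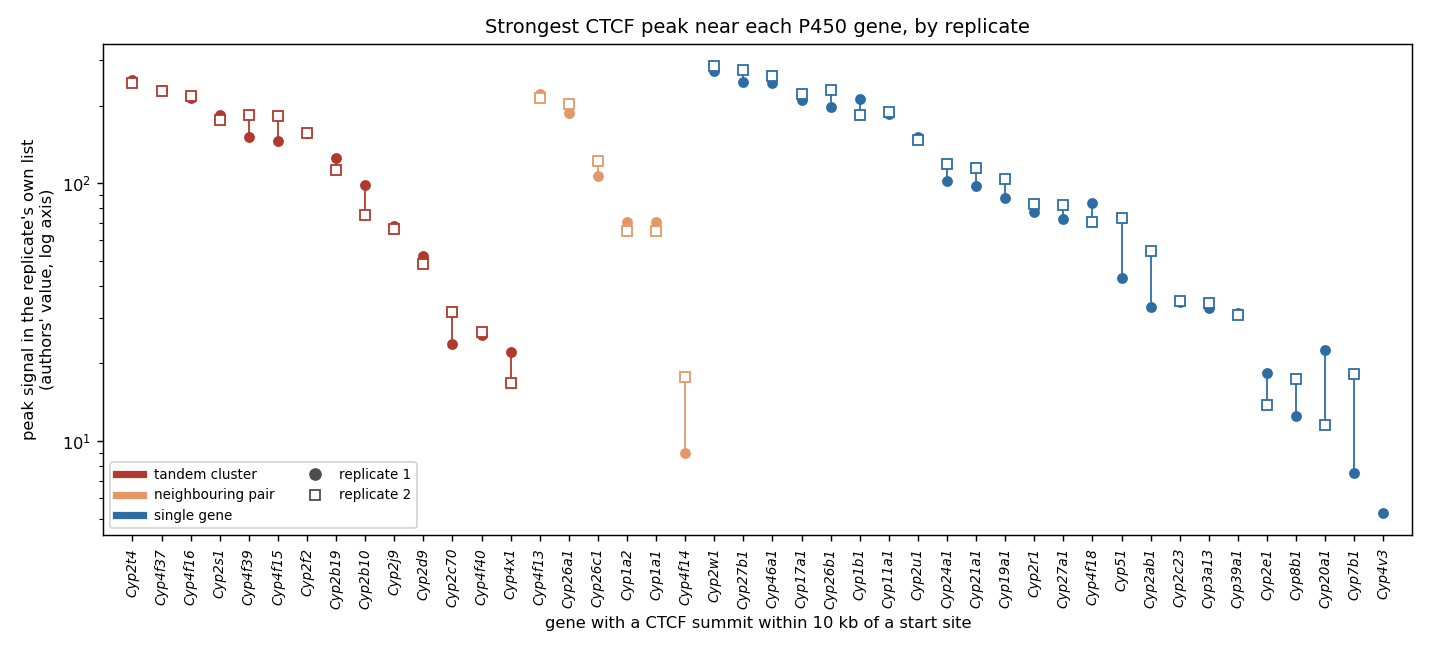
Signal of the strongest CTCF peak within 10 kb of each of the 44 P450 genes (x axis) in each replicate's own peak list (y axis, authors' value, log axis; filled circles replicate 1, open squares replicate 2), coloured by tandem cluster, neighbouring pair or single gene. In replicates 1 and 2 Cyp2w1 has 272 and 284, the weaker Cyp4f40 25.8 and 26.6, and Cyp7b1 7.49 and 18.3, and Cyp4v3 has a peak in replicate 1 only.

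Among single genes the strongest site belonged to Cyp2w1, an orphan P450 described in the developing intestine and in colorectal tumours. It had 5 summits within 10 kb, each with a motif, and signals of 554, 519, 345, 340 and 158. The peak of 554 stood 9.78 kb away in an intron of 3110082I17Rik, with signals of 272 in replicate 1 and 284 in replicate 2. The peak of 519, whose DNA is printed first above, stood 0.841 kb from a Cyp2w1 start site and had signals of 258 and 264 in replicates 1 and 2. Of the 25 single genes, none had a stronger peak.

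Of the genes of bile acid and cholesterol metabolism 6 of 7 had a summit, beside 74.4% of coding genes, and 3 of 7 had one above the median signal of the list, beside 57.5% of coding genes. Cyp46a1, the cholesterol 24-hydroxylase best known in brain, had 4 summits, the strongest 505 at 1.18 kb, with signals of 245 in replicate 1 and 260 in replicate 2. Cyp27a1, the mitochondrial sterol 27-hydroxylase of the alternative bile acid pathway, had a peak of 157 at 0.345 kb without a motif. Its replicate signals were 72.8 and 82.6. Cyp51, the lanosterol demethylase of cholesterol synthesis, had a peak of 115 at 1.40 kb in an intron, with 42.9 in replicate 1 and 73.5 in replicate 2. Cyp39a1, an oxysterol hydroxylase, reached 62.2 at 8.90 kb. Cyp8b1, the sterol 12-hydroxylase that sets the cholic acid share of bile, had a single peak of 30.8 at 0.015 kb without a motif. Cyp7b1, the oxysterol 7-hydroxylase, had a single peak of 25.9 at 2.02 kb, seen with 7.49 in replicate 1 and 18.3 in replicate 2. Cyp7a1, the rate-limiting enzyme of classical bile acid synthesis in liver, was the only single gene without a summit. Its closest one was 17.6 kb away, and the longer pooled list had no peak within 10 kb of it either, in a window where 96.4% of the 32-base words occur once in the assembly.

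Of the steroid hormone genes 4 of 6 had a summit, beside 74.4% of coding genes. The strongest summit of each of the 4 carried a motif, as did that of 35 of the 44 P450 genes with a summit. Over all peaks, which are not only the strongest of a gene, the share was 72.2%. Cyp17a1, the 17-hydroxylase and lyase of androgen synthesis, had a peak of 427 at 0.424 kb, with 209 in replicate 1 and 222 in replicate 2. Cyp11a1, which starts steroid synthesis by cleaving the cholesterol side chain, reached 372 at 7.87 kb, with 185 and 189 in the replicates. Cyp21a1, the 21-hydroxylase, reached 213 at 9.37 kb. Cyp19a1, the aromatase, had 193 at 0.597 kb from a start site inside the gene, far from the gene's 5′ end. Cyp11b1 and Cyp11b2, the neighbouring pair that completes corticosterone and aldosterone, had no summit within 10 kb. Their closest summits were at 31.5 kb and 16.8 kb.

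All 3 vitamin D genes and all 3 retinoic acid genes had a summit, as did 74.4% of coding genes, and 3 genes a list is few. Cyp27b1, which makes active vitamin D, had a peak of 520 at 9.70 kb, in a coding exon of March9 and nearer to that gene's start. Its own promoter held a peak of 42.7 at 0.153 kb without a motif, and its intron one of 143 at 1292 bases with a motif. Cyp24a1, the enzyme that degrades active vitamin D, had a pair of similar peaks, 220 at 8.80 kb with a motif, nearer to the start of Pfdn4, and 217 at 0.310 kb without. Cyp2r1, the vitamin D 25-hydroxylase, had a peak of 161 at 0.225 kb. The retinoic acid hydroxylases, which clear the morphogen from embryonic tissue, had 425 at 1.86 kb in an intron of Cyp26b1, 390 at 6.02 kb from Cyp26a1 and 230 at 1.59 kb in a coding exon of Cyp26c1. Replicate signals for Cyp26b1 were 197 and 230, and for Cyp26a1 187 and 204.

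The 3 genes induced through the aryl hydrocarbon receptor had a summit, beside 74.4% of coding genes, and 2 of them shared it. Cyp1b1, an enzyme of estrogen and polycyclic hydrocarbon oxidation, had a single peak of 396 at 0.686 kb, with 213 in replicate 1 and 184 in replicate 2. Cyp1a1 and Cyp1a2, which are transcribed away from a shared upstream region, had 1 summit in common, of 135, at 0.343 kb from Cyp1a1 and 4.57 kb from Cyp1a2. Its replicate signals were 70.5 and 65.0. Cyp1a1 had a second peak of 45.8 at 921 bases from another of its annotated start sites.

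The remaining single genes ranged widely. Cyp2u1, a long-chain fatty acid hydroxylase, had a peak of 297 at 3.09 kb. Cyp4f18 reached 154 at 8.17 kb, Cyp2ab1 87.2 at 0.568 kb and Cyp2c23 71.7 at 5.90 kb. Cyp3a13, a Cyp3a gene that lies apart from its cluster, had 66.4 at 6.92 kb. Cyp2e1, the ethanol-inducible enzyme, had 31.8 at 2.00 kb and Cyp20a1, an orphan P450, 30.6 at 0.003 kb. Cyp4v3 had the weakest strongest peak of the 44, 9.90 at 0.294 kb, with 5.26 in replicate 1 and no matching peak in replicate 2.

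Within 500 bases of coding start sites few of the summits around P450 genes held a motif, while most did between 500 and 1000 bases. Of the 18 summits within 500 bases of the nearest coding TSS, 3 had a motif (16.7%), against 43.6% of all peaks that close to a coding TSS. These 3 lay at Cyp17a1, Cyp1a1 and Cyp2r1. The median signal of the 18 was 41.5, against 60.7 for all such peaks, and 8 of the 18 exceeded the median of the list. Beyond 500 and up to 1000 bases 11 of 14 had a motif (78.6%), against 60.2%, with a median signal of 152 against 69.8. Beyond 1000 bases 48 of 60 had one (80%), against 77.7%. Over all distances 62 of the 92 summits had a motif (67.4%), near the 72.2% of all peaks on chromosomes 1 to 19. The nearest start was not always that of the P450 gene: it was that of Eef1akmt3 or Slc25a27 for 2 of the 18, and that of Cox19 or Egln2 for 2 of the 14. The line at 500 bases was drawn after the values were seen. It splits the 1 kb window used above, and the parts below and above it differ from all peaks in opposite directions. The low share nearest the start therefore depends on where this line was put.

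As a sum over their length, the 8 tandem clusters held fewer summits per Mb than the genome, and the Cyp4f cluster was the exception. They spanned 4.81 Mb and held 56 summits, 11.7 per Mb, against 29.9 per Mb over chromosomes 1 to 19. The 100 kb on each side held 81 summits, 50.6 per Mb, and the flanks were denser than the inside in 8 of 8 clusters. The Cyp4f cluster held 43.9 per Mb inside. Flanks varied by cluster, from 30 per Mb at the Cyp2c cluster to 80 per Mb at the Cyp2d cluster. The 100 kb left of Cyp3a57, right of Cyp2a4 and left of Cyp2b23 held 0 summits. Without the Cyp4f cluster the inside held 45 summits, 9.88 per Mb, and the flanks 51.4 per Mb.

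**Figure D3:**
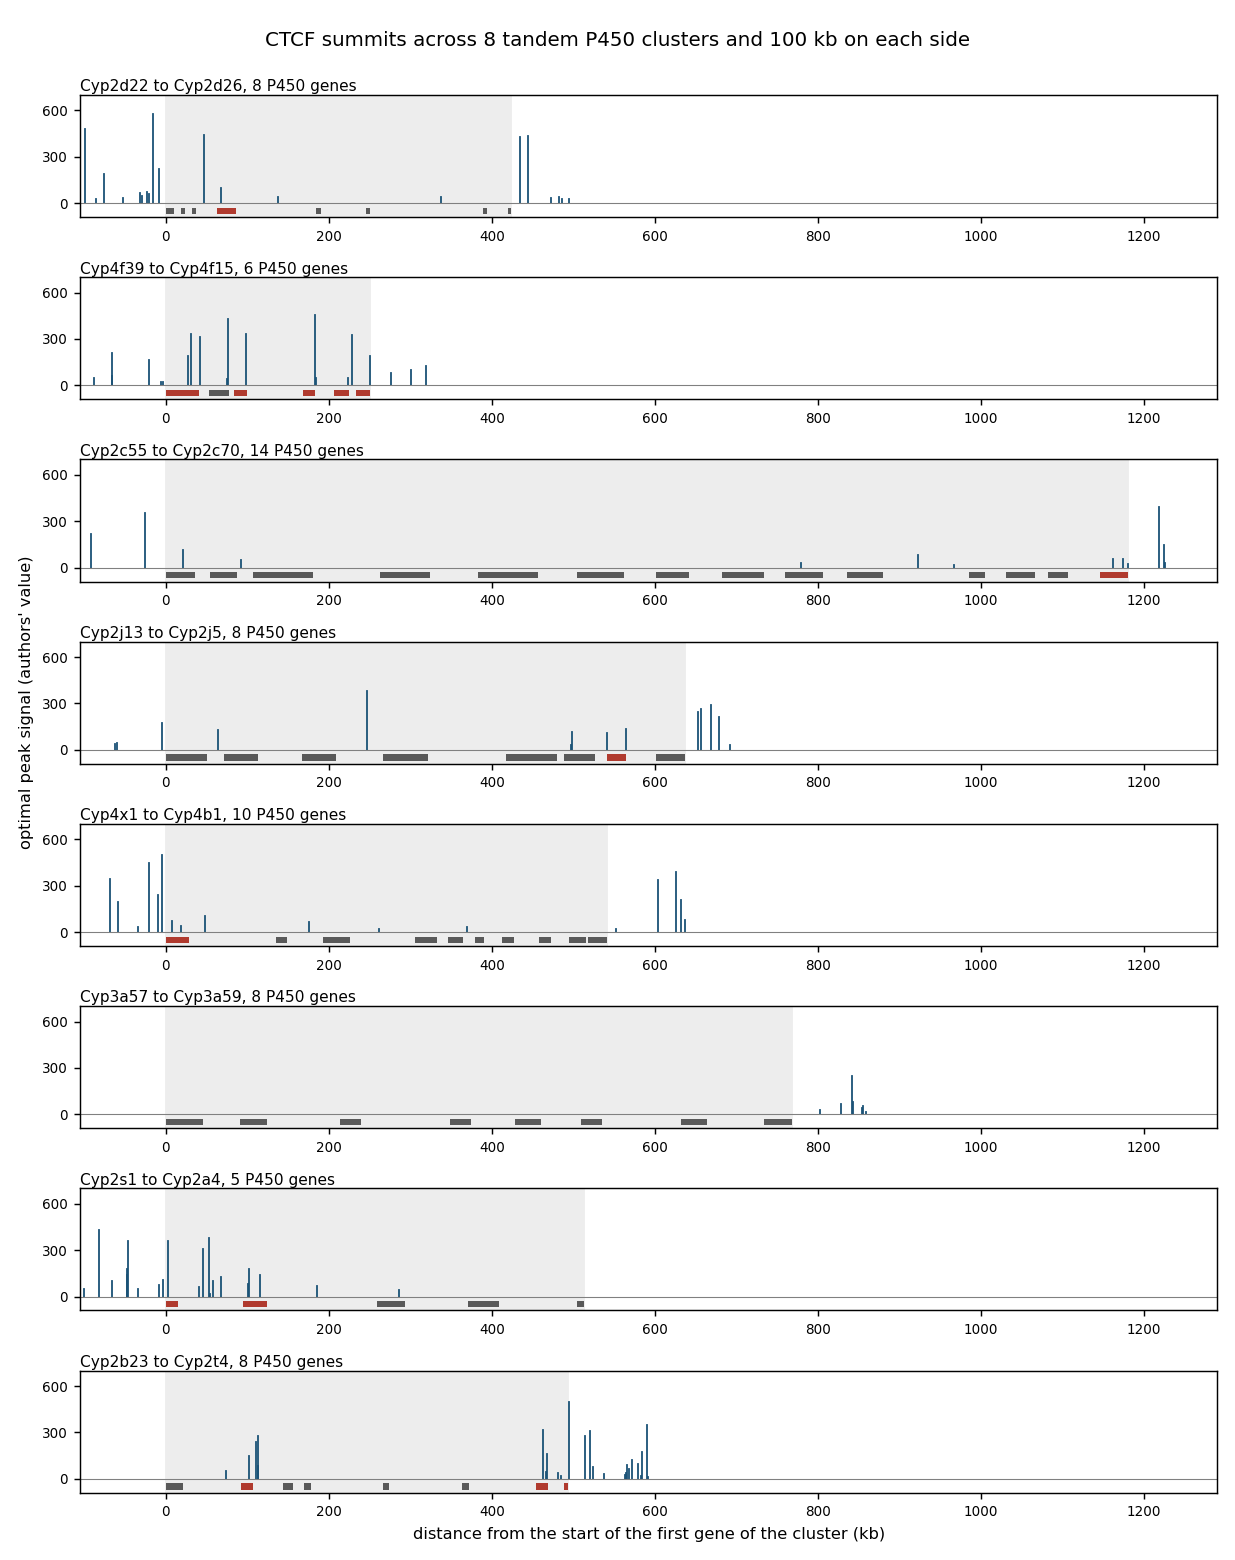
Optimal CTCF summits (vertical lines, height is the authors' signal) across the 8 tandem clusters (grey span) and 100 kb on each side, by distance from the start of the first gene (x axis, kb). Bars below the line are P450 genes, red with and dark grey without a summit within 10 kb of a start site; the Cyp3a cluster has no summit inside and the Cyp4f cluster has 11.

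The Cyp3a cluster, home of Cyp3a11, the main drug-metabolizing Cyp3a enzyme of mouse liver and intestine, had no summit at all. Its 8 genes, from Cyp3a57 to Cyp3a59 (chr5:145345279-146113287), lay in a stretch of 913 kb between 2 summits. Cyp3a11 was 268 kb from the closest summit and Cyp3a41a 428 kb. The pooled list, which is longer and includes peaks below the reproducibility filter, had 10 peaks inside. The motifs of the 2 summits on its borders pointed toward the cluster from both sides. They are printed because they frame the longest of these gaps.
Left of Cyp3a57 (chr5:145234827-145234865, plus strand): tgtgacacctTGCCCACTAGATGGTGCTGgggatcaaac
Right of Cyp3a59 (chr5:146148098-146148136, minus strand): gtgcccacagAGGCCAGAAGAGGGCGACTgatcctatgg
The left border peak had a signal of 284 and lay 110 kb from Cyp3a57, and the right one a signal of 30.4 at 34.8 kb from Cyp3a59.

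The Cyp2c cluster, whose enzymes oxidize drugs and arachidonic acid, was the longest. Its 14 genes from Cyp2c55 to Cyp2c70 (chr19:39007019-40187333) covered 1180 kb with 7 summits, 5.93 per Mb, none above a signal of 111. A stretch of 687 kb without a summit held 6 whole genes. Cyp2c29 was 170 kb from a summit and Cyp2c65, a copy known from the intestine, 33.3 kb. Only Cyp2c70, the bile acid hydroxylase at the right end, had a summit within 10 kb, of 55.5 at 6.60 kb, with 23.8 in replicate 1 and 31.5 in replicate 2. It had another of 24.1 at 0.163 kb. Strong motif peaks stood outside both ends and pointed inward.
Left of Cyp2c55 (chr19:38982151-38982189, plus strand): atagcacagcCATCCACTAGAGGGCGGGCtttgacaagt
Right of Cyp2c70 (chr19:40225603-40225641, minus strand): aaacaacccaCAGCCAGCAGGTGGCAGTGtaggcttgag
Their signals were 351 at 24.9 kb from the cluster and 392 at 38.3 kb.

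The Cyp4x1 to Cyp4b1 cluster, with the fatty acid hydroxylases of the Cyp4a group, had 1 of 10 genes with a summit and likewise inward motifs, at peaks of 496 on the left and 339 on the right. The gene with a summit was Cyp4x1 itself, with 39.4 at 9.08 kb and replicate signals of 22.1 and 16.8. Cyp4b1 at the other end had its closest summit at 11.5 kb. In the Cyp2d cluster, from Cyp2d22 to Cyp2d26, 1 of 8 genes had a summit, Cyp2d9 with 99.7 at 4.63 kb. Its replicate signals were 52.3 and 48.8. The strongest peak inside that cluster, 443, lay 10.5 kb from Cyp2d10, just outside the window, and carried the same 19-base motif as the Cyp2d9 peak on the opposite strand. In the Cyp2j cluster of arachidonic acid epoxygenases, from Cyp2j13 to Cyp2j5, 1 of 8 genes had a summit, Cyp2j9 with 135 at 0.336 kb. The nearest motifs outside the ends pointed inward at 3 clusters, outward at 1 and along the same strand at 4. For the 2 chromosome 7 clusters these lay inside each other's span, 424 kb right of Cyp2a4 and 576 kb left of Cyp2b23.

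The Cyp4f cluster held more summits per Mb than any of the other 7. From Cyp4f39 to Cyp4f15 (chr17:32452723-32703352) it held 11 summits in 251 kb, 43.9 per Mb, close to the 45 per Mb of its flanks, and 5 of its 6 genes had a summit. These enzymes hydroxylate leukotrienes, vitamin K and long fatty acids. Cyp4f37 had 456 at 0.549 kb from a start site inside the gene, with 230 in replicate 1 and 227 in replicate 2. Cyp4f16 had 431 at 7.59 kb, Cyp4f39 334 at 5.24 kb, Cyp4f15 326 at 5.03 kb and Cyp4f40 46.5 at 8.85 kb. Cyp4f17 had none within 10 kb of its own start, the closest being at 11.2 kb. The neighbouring pair carried 435 at 4.24 kb from Cyp4f13 and 27.5 at 9.73 kb from Cyp4f14.

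A CTCF site was repeated within the Cyp4f array. Repeated sites were listed only when outside masked repeats and with a summit at 2 or more copies. Shares of occupied copies are therefore partly set by this rule. The peaks of 431 and 330 near Cyp4f16 lay in untranslated exons of Cyp4f17 and of Cyp4f16 and carried the same 19 bases, shown here because both copies of the site were occupied.
Cyp4f17 exon (chr17:32528959-32528977, plus strand): GAGCCATCAGAGGGCGCTG
Cyp4f16 exon (chr17:32551298-32551316, plus strand): GAGCCATCAGAGGGCGCTG
The 2 sites, taken with 100 bases on either side of the motif's centre and compared without gaps, differed at 11 positions, an identity of 94.5%. The replicate signals were 215 and 217 at the Cyp4f17 exon, and 164 and 167 at the Cyp4f16 exon.

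A second repeated site ran through the Cyp2b genes, which are induced by phenobarbital through the receptor CAR. The search around the Cyp2b10 peak, which did not cover the whole of chromosome 7, found the same 19 bases 5 times. Of the 5 copies 4 had a summit, a share partly set by the rule above. Those whose summits lay 0.735 kb from a Cyp2b10 start and 0.726 kb from a Cyp2b19 start, and the one within Cyp2b13, are printed with a near copy that had Cyp2b19 as its nearest coding gene.
Cyp2b10 (chr7:25917446-25917484, plus strand): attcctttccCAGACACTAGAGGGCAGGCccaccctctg
Cyp2b13 (chr7:26088759-26088797, plus strand): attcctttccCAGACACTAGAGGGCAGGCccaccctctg
Cyp2b19 (chr7:26767262-26767300, plus strand): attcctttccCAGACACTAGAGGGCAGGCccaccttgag
Near Cyp2b19 (chr7:26739109-26739147, plus strand): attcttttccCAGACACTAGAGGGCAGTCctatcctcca
Signals were 142 at Cyp2b10, 45.5 within Cyp2b13, 146 at Cyp2b19 and 48.8 at the near copy. A copy outside the P450 genes, 71.7 kb from the Cyp2b10 start, had 70.3. The copy within Cyp2b9 had no summit in the optimal list and no peak in the pooled list. Over the same length of sequence, compared without gaps, the Cyp2b10 copy was 87.6% identical to that of Cyp2b13 and also 87.6% to that of Cyp2b9. It was 64.7% identical to that of Cyp2b19, and an inserted or missing base would lower such a value. Of the 32-base words in these windows 45.9% were unique at Cyp2b10, 42.4% at Cyp2b13, 62.9% at Cyp2b9 and 89.4% at Cyp2b19. The part of this repetition in the missing Cyp2b9 peak was not tested.

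In the 2 chromosome 7 clusters the genes with the strongest summits within 10 kb were the outermost ones, Cyp2s1 and Cyp2t4. Cyp2s1, an extrahepatic enzyme found in epithelia, had 360 at 9.67 kb, in an exon, with 185 and 176 in the replicates. Cyp2t4 had 494 at 4.93 kb, in the promoter of the neighbouring Egln2, with 250 and 244. Cyp2f2, a lung enzyme of naphthalene metabolism, had 312 at 6.48 kb and Cyp2b19 239 at 9.52 kb. Cyp2b10 had 175 at 6.57 kb. Between the clusters, a stretch of 650 kb without a summit took in Cyp2b9, Cyp2a4 and Cyp2b23. In all, 2 of the 5 genes from Cyp2s1 to Cyp2a4 and 3 of the 8 from Cyp2b23 to Cyp2t4 had a summit.

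The sequence around tandem copies was less unique, and this moved with the missing summits. Within 10 kb of the start sites of a gene, the share of 32-base words that occur once in the assembly had a median of 70.1% for tandem copies, 94.7% for paired and 93.3% for single genes, against 92.9% for 1036 other coding genes sampled evenly. The lowest were Cyp3a41b with 24.3% and Cyp3a41a with 26.7%. The median was 92.6% for the 44 P450 genes with a summit and 67.7% for the 56 without. Splitting at 80%, 11 of 19 tandem copies above the line had a summit (57.9%) and 3 of 48 below it (6.25%). Over all P450 genes it was 39 of 49 above (79.6%) and 5 of 51 below (9.80%). For the sampled genes it was 734 of 882 above (83.2%) and 38 of 154 below (24.7%). Tandem copies were lower on both sides of the line. Cyp2j12 with 94.0% and Cyp2d26 with 93.0% unique words had no summit within 10 kb. Their closest summits lay at 49.1 kb and 11.2 kb, the latter a peak of 430 just outside the window. How much of the shortfall comes from reads that cannot be placed was not tested.

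**Figure D4:**
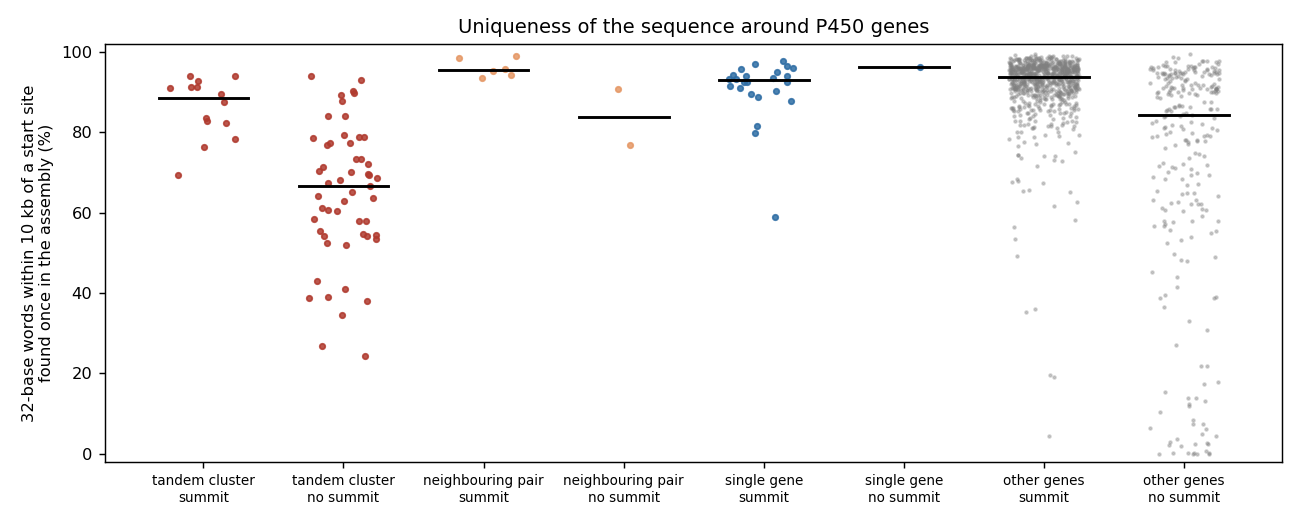
Share of 32-base words within 10 kb of a start site that occur once in the assembly (y axis, %), 1 point per gene, for tandem, paired and single P450 genes and for sampled other coding genes, each split by whether a summit lay within 10 kb. Black lines are medians; tandem copies without a summit spread from 24.3% upward, while 23 of 25 single genes lie above 80%.

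The longer pooled list had a peak within 10 kb of 20 of the 56 P450 genes without an optimal summit (35.7%), against 53.4% of coding genes without one. Their strongest pooled signals ran from 4.48 to 23.2. In the Cyp2c cluster 2 of 13 such genes had a pooled peak, Cyp2c68 with 5.15 and Cyp2c54 with 7.58. Cyp3a11 had one of 6.48 and Cyp2d22 the strongest, 23.2.

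Motif sites were sparser in the clusters as a sum, with the Cyp4f cluster going the other way. Sites that reach a score met in 1% of flanking windows numbered 89 in the 8 clusters, 18.5 per Mb, against 25.7 per Mb on chromosomes 1 to 19. Sites scoring 18 or more numbered 15, 3.12 per Mb, against 6.28 per Mb. The Cyp4f cluster alone had 12 and 2 sites at these lines, 47.9 and 7.98 per Mb, and the second density rests on few sites. The other 7 clusters had 16.9 and 2.85 per Mb. Of the 89 sites 28 had a summit within 100 bases (31.5%), against 48.6%. In sequence that the assembly does not mask as repeats it was 23 of 41 (56.1%), against 70.5%, and in masked repeats 5 of 48 (10.4%), against 30.4%. Among unmasked sites whose surroundings, 100 bases on either side, had at least 80% unique words, 18 of 26 had a summit in the clusters (69.2%), against 73.7% of 1301 sites sampled over chromosomes 1 to 19. Below that line it was 5 of 15 (33.3%), against 28.3%. Unmasked sites at the 1% line numbered 8.53 per Mb in the clusters, against 11.7 per Mb.

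**Figure D5:**
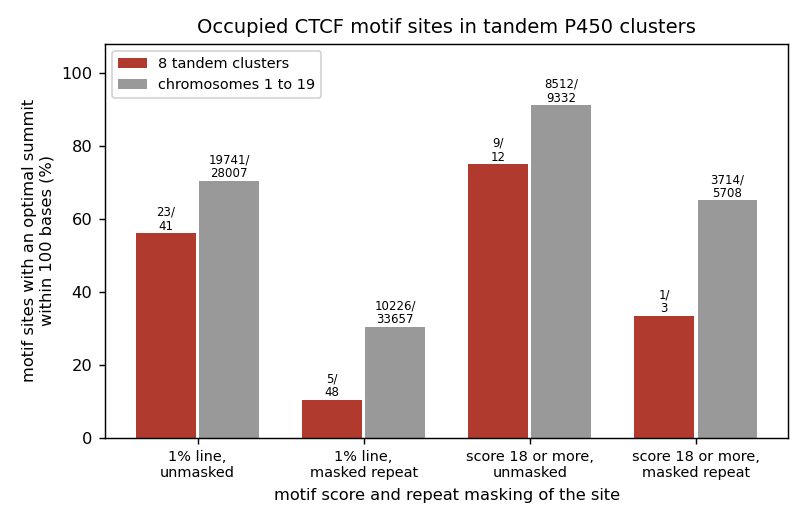
Share of CTCF motif sites with an optimal summit within 100 bases (y axis, %) in the 8 tandem P450 clusters and on chromosomes 1 to 19, for sites at the 1% score line and at a score of 18 or more, each in unmasked sequence and in masked repeats (x axis). Numbers above the bars are occupied over all sites; the cluster bar is the lower one in each pair.

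Some of the sites lay in repeats. Of the 62 summits with a motif, 21 had it in masked repeat sequence (33.9%), against 29.0% of all peaks with a motif. Bases 4 to 13 of the motif read CCAGAAGAGG at 11 of the 62 (17.7%), close to the 17.9% of all motifs under peaks, and all 11 were masked, as were 99.1% of those genome-wide. The printed examples show the same letters at Cyp51, Cyp3a13 and Cyp11a1, which are not neighbours.
Cyp51 intron (chr5:4101972-4102010, minus strand): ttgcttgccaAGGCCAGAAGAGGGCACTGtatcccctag
Cyp3a13 intron (chr5:137914696-137914734, minus strand): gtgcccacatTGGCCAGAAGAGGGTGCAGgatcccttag
Cyp11a1 intron (chr9:58009778-58009816, plus strand): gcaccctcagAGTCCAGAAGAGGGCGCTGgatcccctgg
Their signals were 115, 66.4 and 47.0 in that order. The single peak shared by Cyp1a1 and Cyp1a2 had its motif in masked sequence too.

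Start sites of tandem copies were poor in CpG, the dinucleotide typical of promoters that are open in many tissues. In the 500 bases around the start of the gene record, the ratio of observed to expected CpG had a median of 0.115 in tandem copies, 0.164 in paired genes and 0.326 in single genes, against 0.601 in coding genes. A ratio above 0.6 was found in 0 of 67 tandem copies, 1 of 8 paired and 8 of 25 single genes, against 50.1% of coding genes. Among genes at or below that ratio, a summit lay within 10 kb of 14 of 67 tandem copies (20.9%), 5 of 7 paired (71.4%) and 16 of 17 single genes (94.1%), against 58.2% of such coding genes.

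Genes that serve or control the P450 enzymes were mostly near a site. All 6 electron partners had a summit within 10 kb, among them Fdxr, the mitochondrial ferredoxin reductase, with 423 and Por, the reductase of the microsomal enzymes, with 227. Of 15 regulators 14 had one, the strongest at Nr1h3, the oxysterol receptor LXR alpha, with 478, and at Ahrr, the repressor of the aryl hydrocarbon receptor, with 460. The exception was Nr0b2, the bile acid-responsive repressor SHP, 15.8 kb from its closest summit. These lists are short, and 74.4% of coding genes had a summit by the same rule.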

How the data were processed

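The deposited CTCF ChIP-seq peak lists (mm10) cover replicate 1, replicate 2, the pooled replicates, and an optimal and a conservative selection by IDR, a filter on reproducibility. Per the deposited file descriptions, pooled peaks came from both alignments plus 1 file whose role is unstated, and each selection drew on all of the unfiltered lists. Which aligner, caller and IDR cut-off were applied, and how a control entered, is not given in the sources used here. The peak signal is the value the authors deposited, with its normalization not stated. Summits were read from the deposited offsets.

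Counting used Python 3.11.15, numpy 2.4.6, scipy 1.17.1, numba 0.67.0 and matplotlib 3.10.9, with GENCODE M21 start sites of all transcripts and the GRCm38 sequence, and 0 peaks passed a chromosome end. The motif matrix was trained in 6 rounds on the 5000 strongest peaks with a pseudocount of 1, and a motif was called at the score reached by 5% of windows 1000 bases away. Scans and counts were tested on simulated data. Word uniqueness counted 32-base words, and every 20th other coding gene served as its background. No test between conditions was possible with 1 group. Members, gene lists and rules were chosen with earlier results of these data known. Genes named are the 10 strongest, all with a summit within 1 kb, cluster ends and strongest members, the pathway lists, and some drug-metabolizing genes. Sites in repeats, repeated sites, the scan for motif sites, the CpG window and the split by unique words were added after seeing the data.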

Additional observations from a re-analysis of the deposited data

How the results depend on the processing

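Tandem copies had the lowest share of genes with a summit, below the paired and the single genes, under each alternative run. With a window of 2 kb there were 28 such genes, 6 of them tandem and 3 paired, against 53.9% of coding genes, and with 50 kb 76, of them 43 tandem, against 89.2%. With peaks above the median signal the clusters held 32 summits and their flanks 45, and flanks of 50 kb held 40. With the stricter motif score 23 of 44 strongest summits had a motif, against 35, and no share over all peaks is given for that score. The conservative list gave 41 of 100 genes, against 73.4% of coding genes. The first base of the gene record alone gave 38 of 100, against 68.7%. Summits nearer to the gene than to any other coding TSS gave 43, a setting chosen after seeing the data. For that setting no share over coding genes is given. Restricting to genes with at least 80% unique words, also chosen afterwards, gave 39 of 49 (79.6%), against 44 of 100 without the restriction, while sampled coding genes above the same line had 83.2%. Leaving out a replicate gave 44 genes either way, 56 to 60 summits inside the clusters and 80 to 85 in the flanks. No paired analysis was possible because there is 1 group. The lists hold no read counts, so the depth is unknown, and a gene without a summit lacks a peak that passed the reproducibility filter: 20 of the 56 had a pooled peak. The part of repeated sequence was not tested.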
